A study of Homo sapiens with 8 samples.

Results

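The clustered protocadherin genes were followed through S phase in single human cells. The members are the protein-coding genes of chromosome 5 whose RefSeq symbols begin with PCDHA, PCDHB or PCDHG. They number 53 of 19122 autosomal protein-coding genes, of which 15 belong to PCDHA, 16 to PCDHB and 22 to PCDHG. The 3 clusters and 500 kb on either side span 87 bins of 20 kb, of 143706 on the autosomes. The samples were RPE-1 hTERT cells, a telomerase-immortalised line from human retinal pigment epithelium, either CFAP20-KO or WT. Both genotypes were exposed for 15 min to 10 µM EdU, a nucleoside that replicating cells incorporate in place of thymidine, then fixed in ethanol and sorted singly into multiwell plates. The 8 plates each hold both genotypes, and single-cell EdU sequencing (scEdU-seq) recovered labelled DNA fragments from each well. The labels state neither whether the KO cells come from 1 clone nor whether the plates are separate cultures, so p-values measure the spread between plates only, which may be technical. The files hold labelled DNA and no RNA, so the cell type could not be checked against marker genes.

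Clustered protocadherins are cadherin-like cell-surface proteins known best from neurons, where each cell uses its own combination of them and contacts between matching combinations guide self-recognition. In the PCDHA and PCDHG clusters a row of variable first exons, each with its own promoter, is spliced to constant exons at the end of the cluster, while PCDHB genes are single-exon units. The factor CTCF and the cohesin complex loop enhancers to the chosen promoters, and the C-type members at the end of the PCDHA and PCDHG rows are used more uniformly than the others. Replication timing is the part of S phase in which a region is copied, and it usually changes over domains much longer than 1 gene.

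Most promoters of clustered protocadherins carry a short shared element built around CGCT, and a match to these letters alone does not show the element. Of 52 member promoters listed by RefSeq for 47 members (GRCh38.p14; 300 bases each, all on the plus strand), 51 hold CGCT or its reverse complement AGCG, which is 98.1% against 70.0% of 35116 promoters of all genes. The longer form CGCTGT (reverse complement ACAGCG, a subset of the first) is in 21 of 25 PCDHG promoters, or 84.0%, against 11.2% of all promoters, and in 7 of 13 PCDHA and 1 of 14 PCDHB promoters. This longer form was chosen after the member promoters had been compared, and a match is a description of letters, not of binding. The stretches of 30 bases around it are shown for the first PCDHG gene, a middle one and both C-type genes with an entry, because these promoters mark the positions along which timing is described below. Capitals mark CGCTGT.
PCDHGA1, chr5:141330407-141330436, plus strand: gactgtgggcgcCGCTGTtcactaatctgg
PCDHGB4, chr5:141387621-141387650, plus strand: gactctgggcgcCGCTGTtggccaaagtgg
PCDHGC3, chr5:141475884-141475913, plus strand: gactctgtgtgcCGCTGTcggccaatgaag
PCDHGC4, chr5:141484956-141484985, plus strand: gagcccgggagcCGCTGTctgccaatcggg
CGCTGT begins 95 bases before the annotated start of PCDHGA1, 65 before PCDHGB4, 70 before PCDHGC3 and 62 before PCDHGC4.

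The plates held 1746074 to 4181841 fragments, 26148975 in all, from 1429 KO and 1594 WT wells, and each fragment was counted as 1 molecule. At least 1000 autosomal molecules were found in 1140 KO and 1290 WT cells, and at least 5000 in 431 KO and 483 WT cells. Cells were ranked from 0 (early S phase) to 1 (late) by where their molecules lay on the autosomes, and the timing of a region is the mean rank of the cells that labelled it, weighted by their molecules. With the minimum of 1000 the middle of the ranking is filled by weakly labelled wells, with 4108 molecules per cell in the third quintile against 15572 in the first and 18234 in the last. Values with the minimum of 5000, where the quintiles hold 17715 to 25392 molecules per cell, are therefore given beside the main ones.

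Only PCDHG could be followed. All 22 PCDHG members held molecules in the files used here, 208 to 1555 per annotated gene body over all wells. None of the 15 PCDHA members did, including the first, PCDHA1, the middle one, PCDHA8, and the C-type PCDHAC1 and PCDHAC2. Of the PCDHB members, the first and last in map order, PCDHB1 and PCDHB15, and PCDHB8 in the middle had none, and only PCDHB16 had any, with 5 molecules at 1 position in 5 cells. Among all autosomal protein-coding genes 5.87% had no molecule. Of the 87 bins, 23 had none. Timing and labelling of PCDHA and PCDHB are not analysed here, and the comparisons among the 3 clusters could not be made. The results concern PCDHG (chr5:141330514-141512975, GRCh38, 182 kb), the 57.2 kb directly before it in which molecules were found, and the 500 kb flanks. The stretch before PCDHG contains SLC25A2, a mitochondrial ornithine carrier, and TAF7, a subunit of the general transcription factor TFIID.

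PCDHG was labelled later than both 500 kb flanks and earlier than the stretch directly before it. It was slightly earlier than the median 200 kb window among those with at least 50 molecules in the plate. Its timing was 0.369 in the earliest plate, 0.415 at the median and 0.476 in the latest. The downstream flank was at 0.188, 0.217 and 0.241 in the same order, and the upstream flank, before PCDHA, at 0.135, 0.189 and 0.306. No plate's PCDHG value fell within the range of either flank. PCDHG was later than the downstream flank by 0.199 ± 0.0265 (SD, n = 8; later in 8 of 8 plates; adjusted p = 0.0137 over 7 contrasts by an exact two-sided test that flips the signs of the plates' differences) and later than the upstream flank by 0.199 ± 0.0425 (8 of 8; exact adjusted p = 0.0137). The smallest p that 8 plates allow is 0.00781. In repeats that each leave out a plate it is 0.0156, so such a repeat can fail through fewer plates alone. In cells of at least 5000 molecules the differences were 0.148 ± 0.0240 and 0.195 ± 0.0277, again with later labelling in 8 of 8 plates. With equal weight for each cell at the main minimum they were smaller, 0.0841 ± 0.0468 and 0.0974 ± 0.0550, and still passed (exact adjusted p = 0.0273 each).

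Against the median 200 kb window of the autosomes PCDHG was earlier by a small amount. The difference of PCDHG from the plate's median was -0.0245 ± 0.0232 (SD, n = 8), with 7 of 8 plates below 0 and an exact adjusted p of 0.0365. At the higher minimum it was -0.0367 ± 0.0189 with 8 of 8 plates below 0 (exact adjusted p = 0.00911). At the main minimum this call passed in 1 of the 8 repeats that each left out a plate (exact adjusted p 0.0219 to 0.0729), while the contrasts of PCDHG with both flanks passed in all 8.

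The stretch directly before PCDHG was the latest part of the locus with molecules. Its timing averaged 0.490 ± 0.113, against 0.415 ± 0.0363 for PCDHG (SD, n = 8 plates). The difference, PCDHG minus the stretch, was -0.07497 ± 0.0888 and was below 0 in 7 of 8 plates (exact adjusted p = 0.0328). With the minimum of 5000 the difference was -0.0686 ± 0.0536, below 0 in 8 of 8 plates (exact adjusted p = 0.00911). The main call passed in 2 of the 8 repeats without a plate. Timing in this stretch was not distinguishable from the median window (0.0505 ± 0.0999, exact adjusted p = 0.219).

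**Figure D1:**
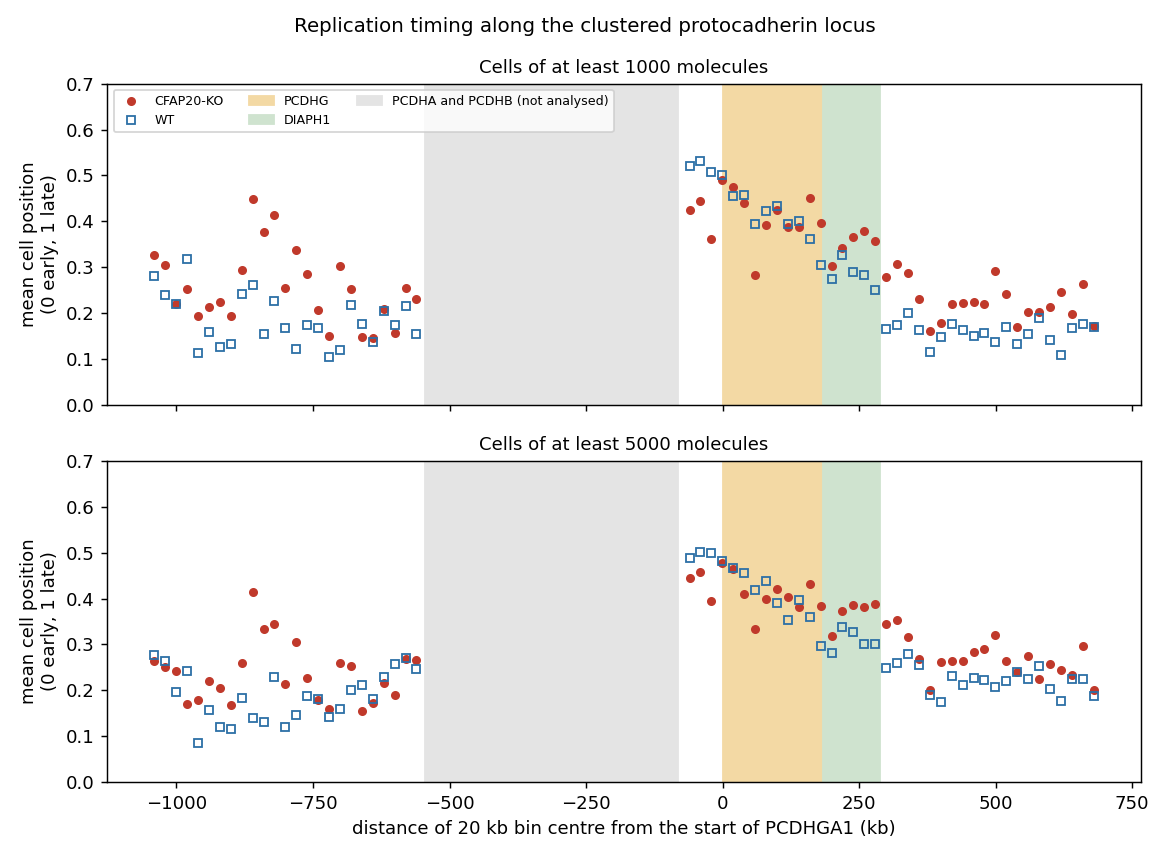
Timing of 20 kb bins with at least 10 molecules, pooled over 8 plates, against distance from the start of PCDHGA1 in kb; 0 is early and 1 late. Filled points are CFAP20-KO cells and open squares WT cells, and the panels use cells of at least 1000 and at least 5000 molecules. Pooled timing is near 0.5 just before PCDHG, varies between 0.343 and 0.464 without a steady course over the PCDHG bins and is lower in the downstream flank.

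Over the gene row itself a gradient of timing was not detectable at this depth. Within PCDHG the slope was -0.0388 ± 0.0985 per 100 kb (SD, n = 8) and was below 0 in 6 of 8 plates (exact adjusted p = 0.396 over 8 slopes), and in cells of at least 5000 molecules -0.0593 ± 0.0726, below 0 in 7 of 8 (exact adjusted p = 0.0729). Over a longer stretch, from the DNA before PCDHG to the end of DIAPH1, the neighbouring gene for an actin-nucleating formin, it was -0.0637 ± 0.0416, between -0.148 and -0.0157 in single plates, and -0.0563 ± 0.0280 at the higher minimum, below 0 in 8 of 8 plates at both. The ends of this stretch were chosen after its profile had been seen, so these values are a description with no test. DIAPH1 (chr5:141515021-141619000) was at 0.307 ± 0.0369, between PCDHG and the downstream flank that contains it.

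The 20 kb bins did not fall steadily along the row. In the PCDHG row the latest bin by pooled timing was chr5:141340001-141360000, at 0.464, which also held the fewest molecules, 137. The earliest was chr5:141500001-141520000, across the end of the cluster, at 0.343 from 167 molecules. The bin chr5:141380001-141400000, towards the front, was at 0.354, earlier than the 5 bins that follow it, which lay between 0.392 and 0.430. The most molecules, 211, lay in chr5:141460001-141480000, which was at 0.396. The earliest bin of the downstream flank was chr5:141700001-141720000, at 0.131. The PCDHG bins held 137 to 211 molecules over 8 plates, and where all plates gave at least 5 the SD over plates of a PCDHG bin was between 0.0451 and 0.167.

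All PCDHG genes are annotated to the same end, so their bodies are nested and share molecules. To separate them, each member was given the DNA from its own start to the next member's start. In cells of at least 5000 molecules the median window averaged 0.446 over plates, and the first members in the row lay above it. PCDHGA1 was at 0.468 from 65 molecules, PCDHGA2 at 0.495 from 37, PCDHGA3 at 0.478 from 50 and PCDHGB1 at 0.526 from 20. Further along, PCDHGA5 was at 0.473 from 64 molecules and PCDHGB3 at 0.484 from 13. PCDHGB4, the eleventh gene, was at 0.396 from 51 molecules and PCDHGA12, the last of the A and B types, at 0.386 from 363. Of the C types, PCDHGC3 was at 0.420 from 70, PCDHGC4 at 0.355 from 19 and PCDHGC5, at the end, at 0.368 from 184. PCDHGA4, near the front, was at 0.352 from 25 molecules and departs from its neighbours. These are pooled values of few molecules, given as a description with no test.

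**Figure D2:**
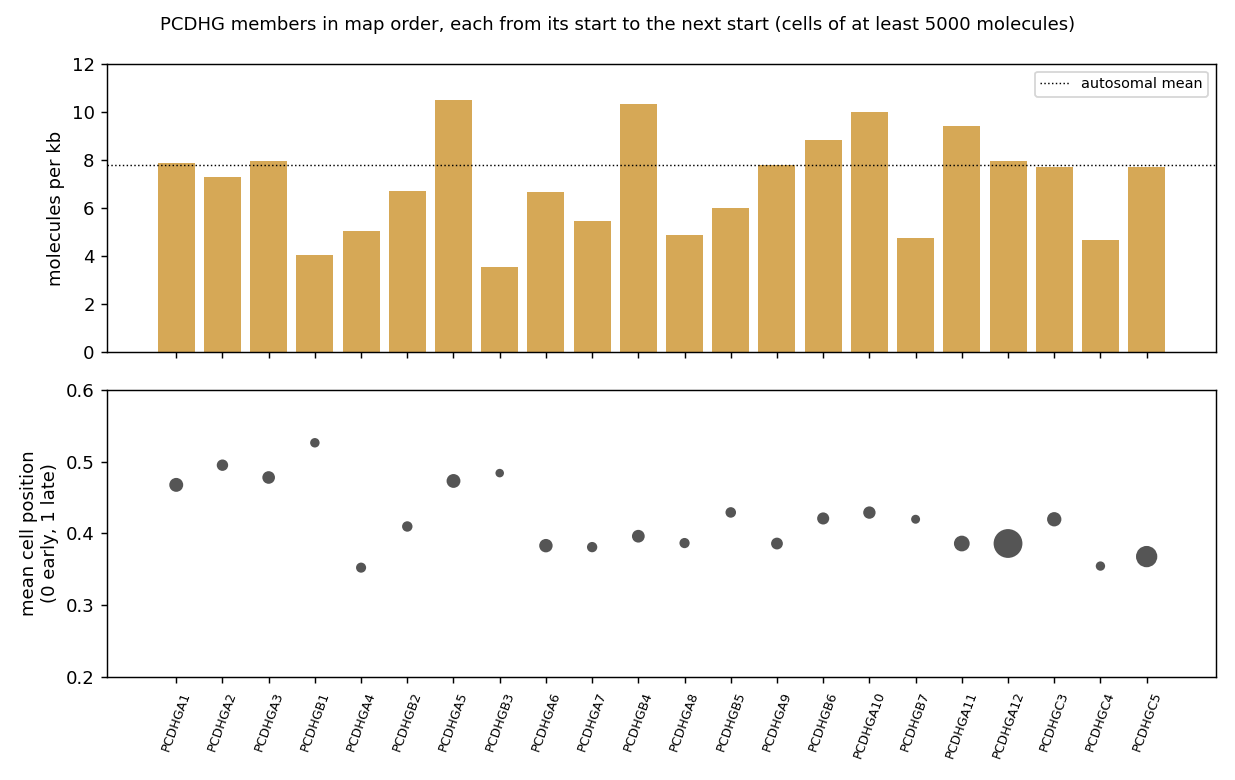
Molecules per kb (bars, dotted line the autosomal mean) and pooled timing (points, area by number of molecules, 0 early and 1 late) of the DNA from each PCDHG start to the next, in map order, in cells of at least 5000 molecules of both genotypes. Members at the left sit mostly near 0.5 and PCDHGC5 at the right at 0.368.

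The same molecules and ranking were also laid out by quintile, which describes the timing further and is not separate evidence. In cells of at least 5000 molecules, PCDHG had 1.27, 1.21, 1.36, 0.786 and 0.109 times the autosomal density of molecules in the quintiles from early to late. It was thus labelled over the first 3 quintiles at a similar level and seldom in the last. The stretch before it had 0.475, 1.54, 1.83, 1.28 and 0.186 times the autosomal density, with its highest value in the third quintile. DIAPH1 had its highest value, 1.63, in the second quintile, and the downstream and upstream flanks had theirs, 2.03 and 2.09, in the first. With the minimum of 1000, where weakly labelled wells fill the middle, PCDHG had 1.19, 1.36, 1.12, 1.30 and 0.481.

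**Figure D3:**
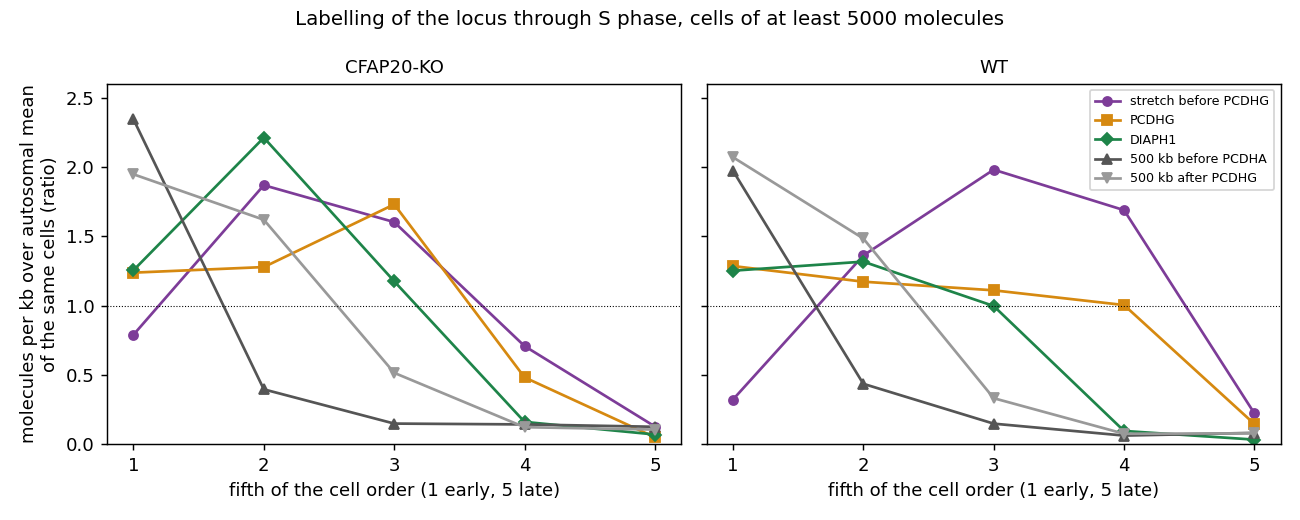
Molecules per kb over the autosomal mean of the same cells, by quintile of the cell ranking, in cells of at least 5000 molecules; CFAP20-KO left and WT right, lines are intervals of the locus pooled over 8 plates. The dotted line at 1 is the autosomal mean. Both flanks are highest in the first quintile, and the stretch before PCDHG peaks in the second quintile in KO cells and in the third in WT cells.

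The same data were also counted in cells. Of the 914 cells of at least 5000 molecules, 374 had a molecule in PCDHG, or 40.9%. By quintile of the ranking the shares were 44.3%, 59.0%, 58.8%, 33.3% and 9.29%, of 182 or 183 cells each. At least 3 molecules were found in 197 cells, whose ranks had a median of 0.403 and quartiles of 0.252 and 0.550. Of these 197 cells, 26 also had at least 3 molecules in the stretch before PCDHG. That is 13.2% of them, beside 7.66% of all 914 cells, and 37.1% of the 70 cells labelled there. In DIAPH1, 36 of the 197 had at least 3, which is 18.3% beside 11.3% of all cells, and 35.0% of the 103 labelled there. In the upstream flank 55 of the 197 had at least 3, which is 27.9% beside 22.6% of all cells. The 914 cells include the 197, and the cells compared were matched in neither depth nor rank. The 10 cells with most PCDHG molecules held 10.7% of them, and the most in 1 cell was 20.

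The density of label in PCDHG was not distinguishable from that of the autosomes at the main setting. It had 8.42 molecules per kb, the stretch before it 10.1, the downstream flank 7.13 and the upstream flank 4.73, against 8.87 over the autosomes. On the log2 scale PCDHG differed from the autosomes by -0.09 ± 0.16 (SD, n = 8; below 0 in 6 of 8 plates; exact adjusted p = 0.156 over 4 intervals). The stretch before it was higher by 0.19 ± 0.21 (6 of 8 plates; exact adjusted p = 0.0417; 2 of 8 repeats without a plate passed), the downstream flank was at -0.31 ± 0.17 and the upstream flank at -0.89 ± 0.24 (both below 0 in 8 of 8; exact adjusted p = 0.0156). These values changed with the weighting of cells: with equal weight per cell PCDHG was at -0.17 and passed (exact adjusted p = 0.0156), the upstream flank at -0.37 (exact adjusted p = 0.0156) and the downstream flank at -0.0922, which did not pass (exact adjusted p = 0.164). Distinct positions, counted over all wells, numbered 3.57 per kb in PCDHG, 4.39 in the stretch before it, 3.55 downstream and 2.70 upstream. They were thus nearly equal in PCDHG and the downstream flank. Molecules per position were 2.39, 2.33, 2.05 and 1.80 in the same order. The part of positions in the densities was not tested. Among members, PCDHGA5 had 10.5 and PCDHGB4 10.3 molecules per kb, PCDHGB3 had 3.56 and PCDHGB1 4.06, all in cells of at least 5000.

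The study asked how loss of CFAP20, which its title ties to RNA polymerase II ahead of replisomes, acts on replication. At PCDHG the timing of the genotypes did not differ detectably. PCDHG lay at 0.339, 0.422 and 0.508 (lowest, median and highest plate) in KO cells, against 0.381, 0.395 and 0.476 in WT cells, and the ranges overlapped. KO minus WT timing was 0.000412 ± 0.0744 (SD, n = 8; 95% interval -0.0618 to 0.0626; exact adjusted p = 0.984 over 4 intervals). At the higher minimum it was 0.00353 ± 0.0393, with an interval of -0.0293 to 0.0364.

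The flanks were labelled later in KO cells at the main minimum. The downstream flank averaged 0.257 ± 0.0354 in KO cells and 0.192 ± 0.0295 in WT cells, a difference of 0.0644 ± 0.0535 that was above 0 in 7 of 8 plates (exact adjusted p = 0.0469). The upstream flank averaged 0.262 ± 0.0824 in KO cells and 0.191 ± 0.0624 in WT cells, with a difference of 0.0712 ± 0.0670 above 0 in 7 of 8 plates (exact adjusted p = 0.0469). Neither passed in cells of at least 5000 molecules, where the differences were 0.0496 and 0.0449 (exact adjusted p = 0.109 each). Each passed in 2 of the 8 repeats without a plate (exact adjusted p 0.0313 to 0.0938). In such repeats an interval at the smallest p cannot pass by itself. A later value in KO was not particular to the flanks, and these values were not centred between genotypes. Every regulator and non-clustered protocadherin listed below with values for both genotypes was later in KO. Examples are PTK2, at 0.275 in KO and 0.196 in WT cells, and PCDH7, at 0.688 and 0.511. Gaps were smaller in others, such as PCDH15, at 0.868 in KO and 0.857 in WT cells. Over the 200 kb windows with at least 50 molecules in every library, the library medians averaged 0.647 in KO and 0.643 in WT cells. The first quintile of the ranking held 207 KO and 279 WT cells, and the last held 245 and 241. Median molecules per cell also differed, 17483 in KO and 25127 in WT cells of at least 5000 molecules. At the main minimum the medians were 2346 against 2379.5, while means per cell differed more. In the first quintile the mean was 12530 in KO and 17828 in WT cells, and in the last 14767 and 21758. The part of either in the timing was not tested.

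The stretch before PCDHG leaned the opposite way without passing the test. Its timing was 0.299, 0.443 and 0.636 (lowest, median and highest plate) in KO cells, against 0.393, 0.466 and 0.687 in WT cells. The difference was -0.0736 ± 0.0899, below 0 in 6 of 8 plates (exact adjusted p = 0.0729), and at the higher minimum -0.0350 ± 0.0568 (exact adjusted p = 0.177). Tested against the shift of the flanks, the KO minus WT shift of PCDHG differed by -0.0708 ± 0.0817 from that of the upstream flank and by -0.06404 ± 0.0816 from that of the downstream flank, each below 0 in 7 of 8 plates. For the stretch before PCDHG the same differences were -0.145 ± 0.129 and -0.138 ± 0.123, also below 0 in 7 of 8 plates. None of the 4 passed (exact adjusted p = 0.0521 to 0.0703; chosen after the data had been seen). At the higher minimum those of PCDHG were -0.0414 and -0.0461 and those of the stretch -0.0798 and -0.0846 (exact adjusted p = 0.0938 to 0.102), so neither shift is shown to differ from that of the flanks.

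**Figure D4:**
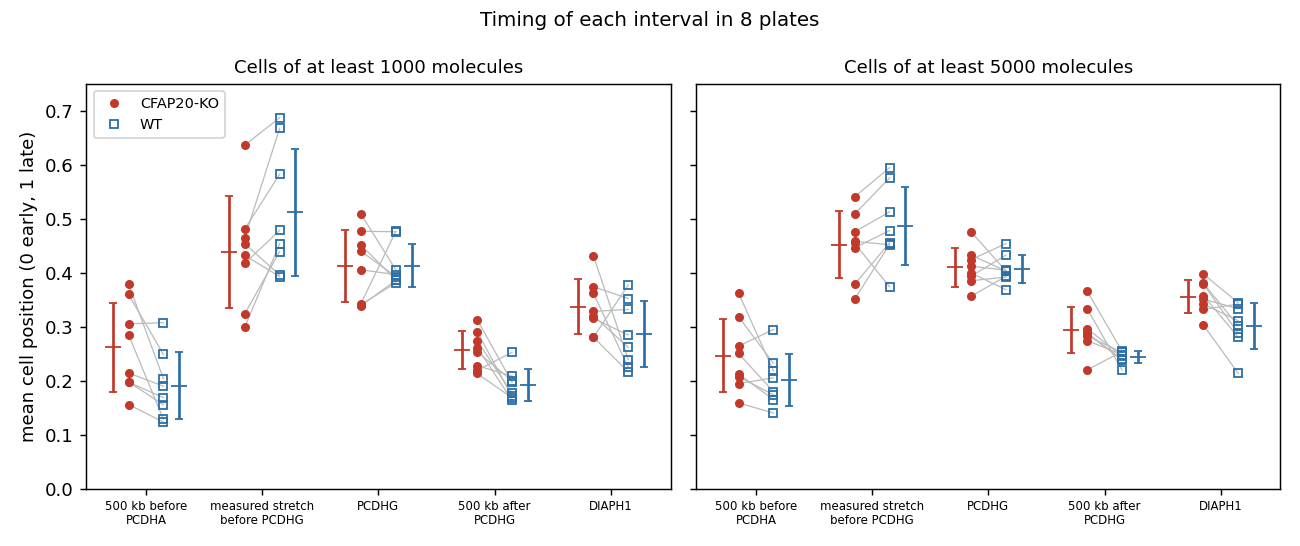
Timing of each interval in the 8 plates, CFAP20-KO (filled) left of WT (open) and joined within a plate, with the mean and SD beside the points; cells of at least 1000 molecules on the left and of at least 5000 on the right. DIAPH1 lies within the 500 kb after PCDHG. The genotypes overlap at PCDHG, and KO is later in 7 of 8 plates in the downstream flank.

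Slopes of timing over the row were also compared between genotypes. Within PCDHG alone the KO minus WT difference did not pass at either minimum (0.0500022 ± 0.177 and 0.0765 ± 0.126 per 100 kb; exact adjusted p = 0.536 and 0.143). From the stretch before PCDHG through DIAPH1 the slope in cells of at least 5000 molecules was -0.0331 ± 0.0320 in KO cells, below 0 in 6 of 8 plates, and -0.0724 ± 0.0288 in WT cells, below 0 in 8 of 8, and the difference, KO minus WT, was 0.0392 ± 0.0255, between 0.0114 and 0.0766 in single plates. With the minimum of 1000 the slopes were -0.0378 ± 0.0525 in KO cells and -0.0805 ± 0.0416 in WT cells, with a difference of 0.0427 ± 0.0480 that was above 0 in 6 of 8 plates. As the ends of this longer stretch were chosen from the profile, its slopes are given with no test.

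Values of single members stood as follows at the ends of the row. In cells of at least 5000 molecules, PCDHGC5 was at 0.438 from 78 molecules in KO cells, against 0.316 from 106 in WT cells, and PCDHGC3 was at 0.470 from 26 in KO cells, against 0.390 from 44 in WT cells. PCDHGC4, which lies between them, was at 0.351 from 8 in KO cells and 0.357 from 11 in WT cells. PCDHGA1, at the front, was at 0.5001 from 14 in KO cells and 0.459 from 51 in WT cells, and PCDHGB4 in the middle at 0.348 from 16 in KO cells and 0.418 from 35 in WT cells. DIAPH1 averaged 0.336 in KO cells and 0.286 in WT cells over the 8 plates at the main minimum. Pooled values of single members rest on few cells and were not tested.

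Timing of KO and WT cells was also compared over 200 kb windows of the whole genome. No window of the locus held at least 50 molecules in all 16 plate and genotype libraries, so none was among the 5745 tested at that minimum, of which limma called 18.2% earlier and 22.6% later in KO. With at least 20, 7 of the 10 windows could be tested among 12524, and 1 was called later in KO and none earlier by limma with Benjamini-Hochberg adjustment, where 16.5% of all windows were called later and 12.7% earlier. The called window, chr5:140400001-140600000 in the upstream flank, was later in KO by 0.122 ± 0.0284 (SE, limma adjusted p = 0.000661), and 2 of the 7, both later in KO, had an unadjusted p under 0.05, beside 1935 earlier and 3047 later of the 12524. It holds ANKHD1, an ankyrin-repeat protein, which was at 0.319 in KO cells and 0.212 in WT cells. The window of the PCDHG row from 141400001 to 141600000 had a difference of 0.0155 ± 0.0259 (SE, limma adjusted p = 0.678), and the one before it, from 141200001 to 141400000, of -0.0563 ± 0.0315 (SE, limma adjusted p = 0.176). In cells of at least 5000 molecules 3 windows of the locus could be tested and none was called, against 25.6% called later and 16.5% earlier among 10709. The window called at the main minimum was not among these 3, because its lowest library then held 16 molecules, under the 20 required. Of the 3, 1 was later in KO with an unadjusted limma p under 0.05, beside 2007 earlier and 3340 later of all windows.

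The amount of label in PCDHG did not differ detectably between genotypes, within wide limits. Per 1000000 autosomal molecules of the same plate and genotype, PCDHG held 36.5, 65.2 and 80.7 molecules (lowest, median and highest plate) in KO cells, against 55.9, 63.5 and 85.7 in WT cells. The log2 ratio of KO over WT was -0.04 ± 0.48 (SD, n = 8; 95% interval -0.44 to 0.36; 4 of 8 plates above 0; exact adjusted p = 0.836 over 4 intervals). The plate with the lowest ratio was at -0.96 and the highest at 0.46. The stretch before PCDHG was at -0.35 ± 0.88, the upstream flank at 0.02 ± 0.27 and the downstream flank at -0.03 ± 0.17, all with an exact adjusted p of 0.836.

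**Figure D5:**
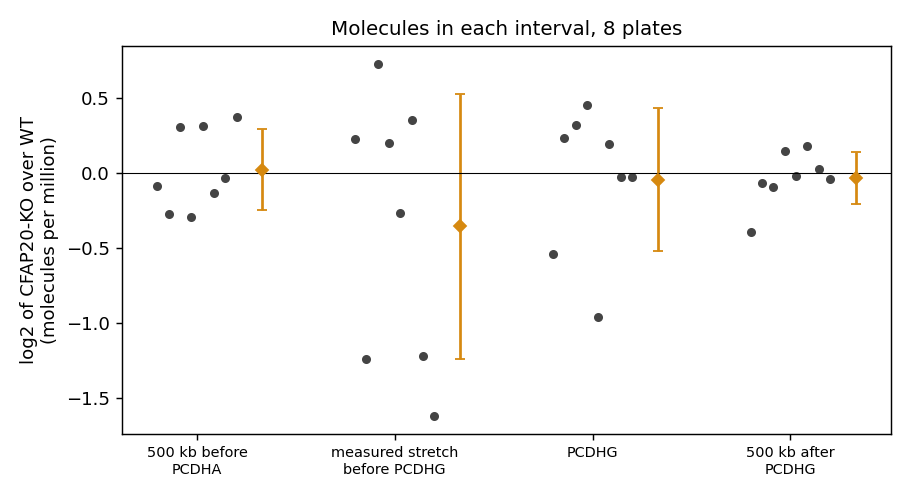
Log2 ratio of molecules per 1000000 autosomal molecules, CFAP20-KO over WT, for each plate (grey points) with the mean and SD (orange) for 4 intervals, in cells of at least 1000 molecules. Plates lie on both sides of 0 in every interval, and the spread is widest in the stretch before PCDHG.

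Gene by gene, none of the 22 PCDHG members was called lower or higher in KO by limma voom with Benjamini-Hochberg adjustment, and none had an unadjusted p under 0.05; over all 8868 genes tested, 1.07% were called lower and 0.214% higher. Log2 ratios of the members were between -0.03 and 0.33, with a median of 0.03 beside -0.05 over all genes. The first member, PCDHGA1, was at -0.03 ± 0.16 (SE; limma adjusted p = 0.979) from 593 molecules in KO cells and 943 in WT cells. The middle member, PCDHGB4, was at 0.03 ± 0.20 (limma adjusted p = 0.979). PCDHGC3 was at 0.17 ± 0.30, PCDHGC4 at 0.32 ± 0.35 and PCDHGC5, the last, at 0.33 ± 0.37 (limma adjusted p = 0.887, 0.791 and 0.798). Because the bodies are nested, these are not separate measurements. Of 17 tested 20 kb bins of the locus none was called, with 0.101% of 85320 bins called lower and 0.0117% higher; 1 of the 17, higher in KO, had an unadjusted p under 0.05, beside 1612 lower and 4414 higher of all bins.

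Of 32 protein-coding genes in the flanks or between the clusters 8 had enough molecules, and none was called, with 1 unadjusted p under 0.05 by limma. PFDN1, a prefoldin chaperone subunit, was at 0.77 ± 0.35 on the log2 scale (SE; limma adjusted p = 0.375). ANKHD1 was at 0.21 ± 0.24, its readthrough ANKHD1-EIF4EBP3 at 0.15 ± 0.23 and TMCO6 at -0.50 ± 0.32. Downstream, DIAPH1 was at 0.33 ± 0.19 and ARAP3 at -0.12 ± 0.37. The non-clustered protocadherin PCDH1 was at 0.27 ± 0.34 and RNF14, a ubiquitin ligase, at -0.20 ± 0.33. In timing of both genotypes together the upstream genes lay between 0.176 (TMCO6) and 0.300 (PFDN1), ARAP3 at 0.225, RNF14 at 0.206 and PCDH1 at 0.173.

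The share of cells with a PCDHG molecule was lower in KO among deeply labelled cells, where depth was lower too. After thinning to equal depth it was still lower in KO on average but did not pass. With the minimum of 1000 the share was 18.6% ± 2.61 in KO cells and 23.7% ± 4.25 in WT cells (SD, n = 8; exact adjusted p = 0.0625 over 4 intervals). Mean molecules per cell were lower in KO at this minimum, 12530 against 17828 in the first quintile, and this share was not thinned. Of cells of at least 5000 molecules the share per plate was 33.8% ± 7.42 in KO cells and 47.2% ± 6.39 in WT cells (SD, n = 8), and it was lower in KO in 8 of 8 plates, by 13.4 points (exact adjusted p = 0.0156 over 4 intervals). Depth differed too, with a median of 17483 molecules in KO cells and 25127 in WT cells. The first quintile of the ranking held 71 KO and 112 WT cells, and the part of this in the share was not tested. When every cell was thinned to 5000 molecules the share was 18.9% ± 4.23 in KO cells and 23.5% ± 3.58 in WT cells, lower in KO in 6 of 8 plates, which did not pass (exact adjusted p = 0.109). The upstream flank was lower in KO by a similar amount, at 46.2% in KO cells and 55.4% in WT cells before thinning (8 of 8 plates; exact adjusted p = 0.0156) and 25.6% in KO cells and 30.1% in WT cells after it (exact adjusted p = 0.0625). The downstream flank had 36.4% in KO cells and 36.5% in WT cells after thinning (exact adjusted p = 0.914). At least 3 PCDHG molecules were found in 71 of 431 KO cells and 126 of 483 WT cells. The share of such cells per plate averaged 16.5% in KO and 25.2% in WT (exact adjusted p = 0.0469 over 4 intervals). With the minimum of 1000 it averaged 6.34% and 9.75% (exact adjusted p = 0.0469). In the upstream flank this share was also lower in KO and passed at both minima (exact adjusted p = 0.0469 at 5000 and 0.0313 at 1000). Shares of cells with at least 3 molecules were not thinned.

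By quintile of the ranking PCDHG density relative to the autosomes was 1.24, 1.28, 1.73, 0.482 and 0.05001 in KO cells, against 1.28, 1.17, 1.11, 1.00 and 0.146 in WT cells, each pooled over plates. In KO cells the highest value stood in the third quintile, with 217 of 519 molecules. In WT cells the first 4 quintiles lay between 1.00 and 1.28. The fourth held 184 of 848 molecules in WT cells, or 21.7%, and 63 of 519 in KO cells, or 12.1%. These pooled profiles hold few cells per plate and were not tested.

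Non-clustered protocadherins, which lie outside the clusters, were mostly later. Of 12 non-clustered protocadherin genes 6 could be timed, with a median of 0.738, beside 0.401 for the 22 PCDHG members and 0.246 for all 8608 timed genes. The latest were PCDH15, needed for hair-cell tip links, at 0.862 ± 0.0388 and PCDH17 at 0.859 ± 0.0591. The earliest were PCDH1, in the downstream flank, at 0.173 ± 0.0459 and PCDH7 at 0.586 ± 0.0454 (SD, n = 8 plates). With the minimum of 5000 the medians were closer: 0.630 for the 6 non-clustered genes, 0.389 for the PCDHG members and 0.314 for all 7270 timed genes. Of 20 regulators and partners of the clusters 15 could be timed, with a median of 0.218. FYN, a kinase that acts with protocadherins, at 0.196 and PDS5A, a cohesin regulator, at 0.197 were the earliest. The latest were PTK2B, a kinase inhibited by protocadherins, at 0.356 and the cohesin subunit RAD21 at 0.310. With the minimum of 5000 the median of the 11 regulators and partners timed was 0.253. PTK2 was then the earliest, at 0.198, and RAD21 could not be timed. Neither list had a member called between genotypes by limma, of 6 and 16 tested, and 0 and 2 members had an unadjusted p under 0.05.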

How the data were processed

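Per the file headers, the deposited tables give the cell, chromosome, base position, length and genotype of each fragment. A position in bases is the unit, and molecules were counted here from these fragments. The build is GRCh38 per the submitters' processing notes; the sources used here do not name the aligner or filters. Within plates 3.26% to 4.62% of fragments repeated a cell, position and direction. Plates shared 377 of 378 cell barcodes, so a barcode was read as a well of its plate. Genotype came from the column of the files, since titles place both on every plate.

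Cells of at least 1000 autosomal molecules were ranked by correspondence analysis (first axis, 500 kb bins), which held 18.8% of the variation, gene-rich end early. Stretches over 10 kb without a molecule were left out of lengths. Intervals were tested by exact sign-flip over 8 plates, with 95% intervals from the t distribution. Genes and 20 kb bins with a mean of at least 10 molecules per library were summed and tested with limma 3.58.1 voom (R 4.3.3), and timing of 200 kb windows with limma, each library centred on its median; genes were timed with at least 10 molecules in every plate. A count model had been planned as an alternative and was not run. Ranking used Python 3.11.15 and numpy 2.4.6; procedures were tested on simulated data. Titles pair genotypes by plate; deviations of same-plate libraries correlated by -0.0464 to 0.0460 over genes.

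Members, lists and tests were chosen with earlier results of these data known. Named were the first, middle and last member of each cluster, C-type members, any member called, neighbours past the filter, the 2 earliest and latest of each list, and extreme bins; the other PCDHG members named were chosen after their values were seen. Proteins are not used here.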

Additional observations from a re-analysis of the deposited data

Results flagged for a closer look

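Of 39 sets of 8 plate values examined, 3 had a plate far from the others by Dixon's test, which chance gives in about 1 of 20 such sets. The difference in timing between PCDHG and the downstream flank was 0.257 in plate 7, and the next highest plate was at 0.209. The density of the downstream flank against the autosomes was -0.70 on the log2 scale in plate 6, with the next lowest plate at -0.35. The stretch before PCDHG held 49.2 molecules per 1000000 in the WT cells of plate 8, the plate with the fewest fragments, and the next highest WT value was 30.6.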

How the results depend on the processing

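The contrasts of PCDHG with both flanks kept direction and call under every alternative run, although equal weight per cell lowered them to 0.0974 (upstream) and 0.0841 (downstream), against 0.199 each, and no PCDHG member or 20 kb bin of the locus was called under any. Leaving out each plate in turn moved PCDHG minus the median window between -0.0301 and -0.0191 and PCDHG minus the stretch before it between -0.0879 and -0.0544. It moved KO minus WT timing between 0.0563 and 0.0817 in the upstream flank, -0.0924 and -0.0551 in the stretch before PCDHG, -0.0143 and 0.0196 in PCDHG, and 0.0565 and 0.0784 in the downstream flank. The log2 ratio of molecules, KO over WT, moved between -0.0269 and 0.0680 in the upstream flank, -0.51 and -0.17 in the stretch before PCDHG, -0.114 and 0.0875 in PCDHG, and -0.0630 and 0.0185 in the downstream flank, and the density of the stretch before PCDHG between 0.14 and 0.22.

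With at least 5000 molecules per cell, KO minus WT timing lost its call at 0.0449 upstream and 0.0496 downstream, the density of the stretch before PCDHG lost its call at 0.21, and the upstream log2 ratio of molecules turned to -0.0209. With that minimum and the order made without chromosome 5 these values were 0.0434, 0.0489, 0.21 and -0.0209, and with equal weight per cell 0.0477, 0.0671, 0.10 and -0.18; both combinations were chosen after seeing the data. Equal weight per cell at the main minimum ended the calls of PCDHG minus the median window (-0.0286), PCDHG minus the stretch before it (-0.0447), KO minus WT timing upstream (0.0514) and downstream (0.0520), and the downstream density (-0.0922), while the PCDHG density passed at -0.17 and the upstream density was -0.37. KO minus WT timing of PCDHG, uncalled throughout, turned to -0.00241 with 1 fragment per cell, position and direction and to -0.00456 with the order in 1 Mb bins. Scaling by chromosome 5 turned the upstream log2 ratio to -0.0187. Without the replicate block (no pairing by plate) the upstream timing difference of 0.0712 lost its call (exact adjusted p = 0.146). Windows with at least 20 molecules gave 1 call in the locus. The causes were not tested.

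Over the genome, the plate as replicate block gave 41 genes higher in KO against 19 without it, 131 against 86 bins lower and 73 against 10 higher; it called no member or bin of the locus, where no window was tested. TMM scale factors gave 12 genes higher, and the minimum of 5000 gave 46 bins lower and bins of 50 kb gave 144. Windows called earlier and later numbered 1045 and 1297, against 1588 and 2061 with at least 20 molecules and 363 and 394 with the minimum of 5000, and 1767 and 2743 with both. The planned comparisons among the 3 clusters and the count-model alternative were not run. Members hold few molecules per plate, so shifts smaller than the intervals given were not detectable.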
